A study of Homo sapiens with 4 samples.

Results

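The carbonyl and quinone reductases described here are 10 human genes: the quinone reductases NQO1 and NQO2, the aldo-keto reductases AKR1A1, AKR1B1, AKR1B10, AKR1C1, AKR1C2 and AKR1C3, and the carbonyl reductases CBR1 and CBR3. They were chosen by gene name, and all 10 were found by Ensembl identifier among the 61541 genes of the deposited RNA-seq table. The RNA came from MDA-MB-231, an established human triple-negative breast cancer cell line. Control cells had no cadmium and were passaged serially in normal medium. Cadmium cells were passaged serially in medium with CdSO4, raised stepwise to 10 µM, until they were resistant. Each group had 2 libraries, named here control 2 and control 3 (after the table's columns) and cadmium 1 and cadmium 2. No source used here says whether the cadmium libraries came from separately selected lines.

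NADPH-dependent reductases of these families turn reactive carbonyls and quinones into alcohols and hydroquinones. NQO1 passes electrons to quinones as a pair and so avoids the semiquinone radical, while the aldo-keto and carbonyl reductases act on aldehydes and ketones, from sugars and lipid peroxidation products to steroids, prostaglandins and anthracycline drugs. NQO1, AKR1B10 and the AKR1C genes are textbook targets of NRF2, the transcription factor released from KEAP1 by electrophiles and oxidants, which acts through the antioxidant response element.

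The sequences of the AKR1C genes bear on how their reads could be counted, so an exon that AKR1C1, AKR1C2 and AKR1C3 share by position is shown first. It is exon 2 of each canonical transcript in GENCODE release 44, wholly coding, 168 bases long and read 5′ to 3′ on the gene's strand from hg38. The genes lie on chromosome 10, at chr10:4965914-4966081 (plus strand), chr10:5001514-5001681 (minus strand) and chr10:5096410-5096577 (plus strand) respectively. Capitals mark the 17 positions at which at least 1 of the 3 differs.
AKR1C1: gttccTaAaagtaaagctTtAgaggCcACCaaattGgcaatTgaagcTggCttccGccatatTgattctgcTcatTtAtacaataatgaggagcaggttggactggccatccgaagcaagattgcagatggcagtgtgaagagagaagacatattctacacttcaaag
AKR1C2: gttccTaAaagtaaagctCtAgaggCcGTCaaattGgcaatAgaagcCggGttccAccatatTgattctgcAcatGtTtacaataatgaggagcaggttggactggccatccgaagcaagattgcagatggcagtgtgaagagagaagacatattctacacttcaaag
AKR1C3: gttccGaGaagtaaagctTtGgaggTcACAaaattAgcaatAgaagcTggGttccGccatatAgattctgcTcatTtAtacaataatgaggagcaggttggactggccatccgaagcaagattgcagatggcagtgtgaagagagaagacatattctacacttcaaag

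In this exon AKR1C2 differed from AKR1C1 at 10 positions, AKR1C3 differed from AKR1C1 at 9, and AKR1C2 and AKR1C3 differed at 15. Every capital lies in the 5′ part, and the remainder of the exon is the same in the 3 genes. Over the whole coding sequence of 969 bases, AKR1C1 and AKR1C2 were identical at 950 positions (98.0%), AKR1C1 and AKR1C3 at 91.4%, and AKR1C2 and AKR1C3 at 91.0%. The other members were less alike, with 76.1% identity for AKR1B1 and AKR1B10, 77.5% for CBR1 and CBR3, and 51.6% for NQO1 and NQO2.

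The counting dropped reads reported at several places, which can happen to a read of 150 bases that lies wholly in identical sequence unless its mate places it. How such reads were placed was not tested. Of the 820 windows of 150 bases in each AKR1C coding sequence, 38 (4.63%) in AKR1C1, 60 (7.32%) in AKR1C2 and 22 (2.68%) in AKR1C3 also occurred in another gene. Over whole canonical transcripts the shares were 7.91% for AKR1C1, 17.2% for AKR1C2 and 2.12% for AKR1C3. AKR1C1 shared its windows with AKR1C2, whereas AKR1C3 shared 22 windows with AKR1C2 and none with AKR1C1. In NQO2, AKR1A1, AKR1B1 and AKR1B10 no window was shared. CBR3 had the highest share, because 416 of its 849 transcript windows (49.0%) also lie in CBR3-AS1, a gene on the opposite strand at the same place. Counting ignored strand and dropped reads that overlap 2 genes, so CBR3 was counted over the 28.9% of its exon bases that no other gene overlaps.

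**Figure D1:**
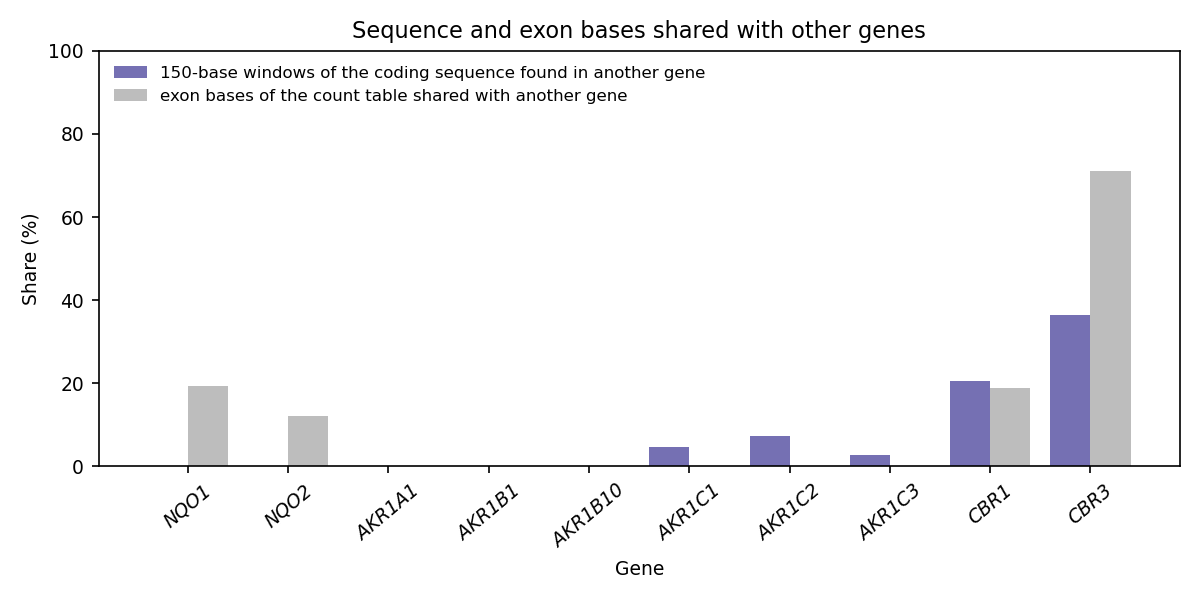
Share in percent (vertical axis) for each of the 10 genes, with a purple bar for 150-base windows of the coding sequence that also occur in another gene and a grey bar for exon bases of the table that another gene overlaps. CBR3 and CBR1 have the tallest purple bars, at 36.5% and 20.5%, the AKR1C genes lie between 2.68% and 7.32%, and the other members are at 0.

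The stretches in front of the AKR1C genes are shown because AKR1C1 and AKR1C2 are nearly identical there too. These come from RefSeq promoter windows of GRCh38.p14 (250 bases before to 50 after a start), which were listed for 8 of the 10 members in 10 windows. AKR1B10 and CBR3 had no window. For AKR1C1 (chr10:4963169-4963414, plus strand) and AKR1C2 (chr10:5003862-5004107, minus strand), 246 bases before the start differed at 1 position, in capitals in the AKR1C1 sequence. For AKR1C3 the 250 bases before its upstream start are given (chr10:5048531-5048780, plus strand), with a match to a metal response element core in capitals. That start lies far from the start of the canonical transcript used above, at chr10:5094414.
AKR1C1: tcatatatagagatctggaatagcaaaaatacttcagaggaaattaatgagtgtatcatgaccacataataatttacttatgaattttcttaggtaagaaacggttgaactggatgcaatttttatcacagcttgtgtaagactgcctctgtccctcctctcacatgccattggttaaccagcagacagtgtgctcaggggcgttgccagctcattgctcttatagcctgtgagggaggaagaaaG
AKR1C3: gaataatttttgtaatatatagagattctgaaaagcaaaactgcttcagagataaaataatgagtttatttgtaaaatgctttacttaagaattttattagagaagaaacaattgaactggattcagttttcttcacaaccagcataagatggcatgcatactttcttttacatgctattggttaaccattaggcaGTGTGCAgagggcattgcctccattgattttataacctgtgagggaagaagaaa

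The windows were searched on both strands for 4 core motifs. The antioxidant response element core TGACNNNGC was in the CBR1 window alone, at position -159 from the start, against 13.3% of all 35116 promoter windows. The AP-1 site TGANTCA was in none of the member windows, against 7.71% of all windows. The metal response element core TGCACNC occurred in the AKR1C3 window shown, at position -54 from the upstream start, against 12.1% of all windows. Its variant TGCGCNC occurred in the windows of AKR1B1 and CBR1, against 7012 of the 35116 windows. A match is a run of letters and not a measured binding site. The windows reach 250 bases before a start, so a motif farther away was not searched for. AKR1B10 and CBR3, without a window, were not searched at all.

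Depth was even, with 51934729 to 61916007 reads assigned to genes per library. The control libraries differed from each other more than the cadmium libraries did: the robust SD of the log2 ratio was 0.56 for the pair of controls and 0.16 for the pair of cadmium libraries, taken over the 12924 genes that averaged 100 normalized counts or more. This spread touches most of the values that follow. Markers of MDA-MB-231, among them VIM, CD44 and AXL, summed to 6025 to 7126 CPM (counts scaled to library size) in every library, and none of the 8 was called. Of the 8, 2 had an unadjusted p below 0.05 in DESeq2 (1 with edgeR), against 6.92% of all genes tested. The log2 fold change was above 0 for 2 and below 0 for 6. It was 0.80 for MSN, where control 2 was far below control 3 (38172 and 71613 normalized counts), and -0.71 for S100A4 (25832 and 39911). The 7 markers that should be absent or low summed to 112 to 176 CPM, and DESeq2 called none of the 6 that were tested (0 at an unadjusted p below 0.05, 1 with edgeR). Among them ESR1 had at most 20 reads and PGR at most 30 in any library, but ERBB2 had 4606 to 7158 reads and GATA3 495 to 1047, EPCAM had 2547 reads in control 2 against 623 to 778 in the other libraries, and CDH1 had 578 in control 3 against 113 to 170. Markers of immune, endothelial, stromal and other cells summed to 11.5 and 35.0 CPM in control 2 and control 3, and to 24.2 and 25.3 CPM in the cadmium libraries. CD3E and KRT5 were at 0, but COL1A1 had 529 to 875 reads. PECAM1 had 169 and 792 reads in control 2 and control 3, and 689 and 649 in cadmium 1 and cadmium 2. In the same order PTPRC had 2, 135, 37 and 43 reads. In such bulk samples, fewer cells that express a gene and less RNA per cell cannot be told apart.

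Of the 10 members, 1 (AKR1C3) passed the test, and it was higher in cadmium cells. Genes were called at an adjusted p below 0.1 in DESeq2, fitted over the whole table, which called 225 of 19816 genes tested (1.14%), 119 of them higher (0.601%) and 106 lower (0.535%). All 10 members were tested. An unadjusted p below 0.05 was found for 4 members (NQO1, AKR1B10, AKR1C1 and AKR1C3), against 6.92% of all genes. With edgeR's quasi-likelihood test 0 of the 10 members and 0 of 19241 genes (0.0%) had an adjusted p below 0.1. At an unadjusted p below 0.05 edgeR gave 4 members, which were NQO1, AKR1A1, AKR1B10 and AKR1C3, and 7.83% of all genes. The log2 fold change was above 0 for 7 members and below 0 for 3, with a median of 0.47 over the members and -0.02 over all genes tested, of which 47.4% were above 0. The groups did not overlap for 7 members, against 40.3% of all genes tested. Both cadmium libraries lay above both controls for 4 of them (20.3% of all genes tested) and below both for 3 (19.9%).

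**Figure D2:**
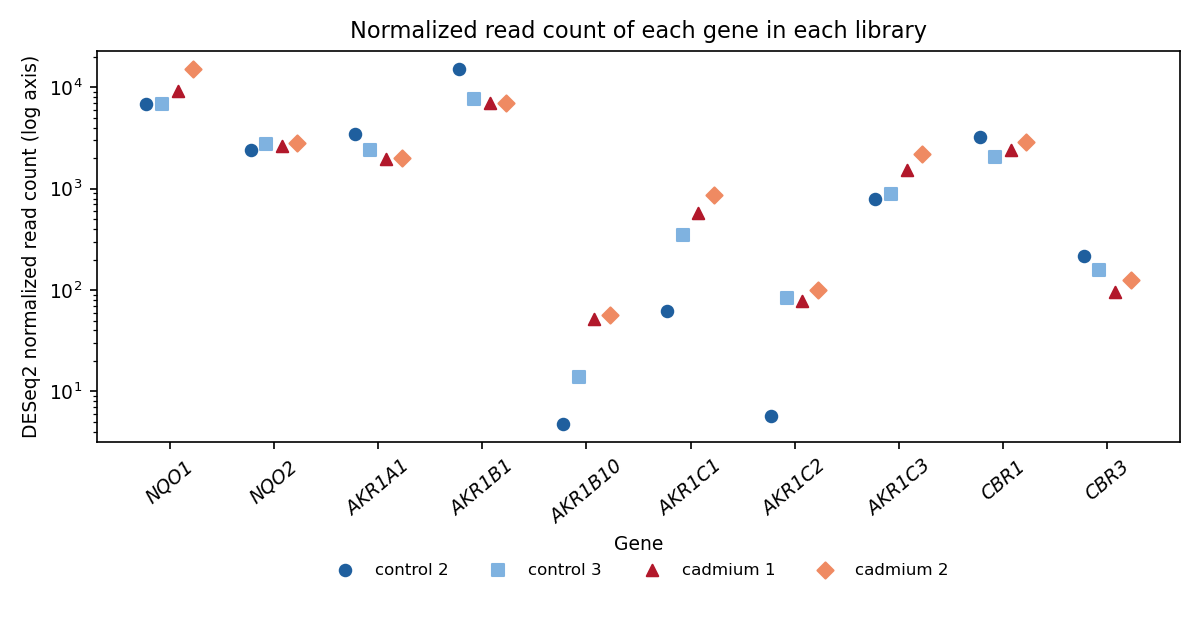
DESeq2-normalized read counts (vertical log axis) of the 10 reductase genes, with 1 point for each of the 4 libraries. Both cadmium libraries lie above both controls for NQO1, AKR1B10, AKR1C1 and AKR1C3, and below both for AKR1A1, AKR1B1 and CBR3.

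The members spanned a wide range of levels, compared here as RPKM, which divides reads by exon length and by the reads assigned in the library. In control cells AKR1B1, the aldose reductase that turns glucose into sorbitol, had the highest mean level at 54.8 RPKM, followed by NQO1 at 40.5 RPKM, whose values lay within the range of AKR1B1 in the controls. CBR1, NQO2 and AKR1A1 followed at 18.8, 18.6 and 16.6 RPKM, and their ranges over the control libraries overlapped. AKR1C3 (3.79 RPKM) and CBR3 (3.28 RPKM) were lower and also overlapped on this length. CBR3 was counted over only 28.9% of its exon bases. Over those bases its controls were at 12.8 and 9.89 RPKM, above AKR1C3 (3.44 and 4.13 RPKM). AKR1C1, AKR1C2 and AKR1B10 were lower still at 0.418, 0.131 and 0.0934 RPKM, with ranges that overlapped. In cadmium cells NQO1 came first at 73.9 RPKM, with both libraries above those of AKR1B1 (mean 34.5 RPKM). AKR1C3, at 8.64 RPKM in cadmium cells, was below NQO2 (20.4 RPKM), CBR1 (19.6 RPKM) and AKR1A1 (11.5 RPKM). The order depends on gene length: with the length of the canonical transcript alone, chosen after seeing the data, control levels were 147 RPKM for AKR1B1, 47.8 for NQO1, 42.0 for NQO2, 38.2 for CBR1, 36.9 for AKR1A1 and 12.5 for AKR1C3. On that length the order in cadmium cells turned for both comparisons above: AKR1B1 was at 92.6 RPKM and NQO1 at 87.1 RPKM, with the AKR1B1 libraries inside the range of NQO1 (66.9 to 107 RPKM), and AKR1C3 was at 28.5 RPKM (23.6 and 33.3) and AKR1A1 at 25.6 RPKM. AKR1C3 was still below NQO2 (46.2 RPKM) and CBR1 (39.8 RPKM).

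NQO1 (ENSG00000181019, chr16:69706996-69726668, minus strand) encodes the cytosolic quinone reductase that is a classic readout of NRF2 activity. Its normalized counts were 6778 and 6912 in control 2 and control 3, and 9253 and 15105 in cadmium 1 and cadmium 2. The controls lay close together and below both cadmium libraries, while cadmium 2 was far above cadmium 1. The means were 6845 ± 95.2 and 12179 ± 4138 (SD, n = 2 each) for control and cadmium cells, a 1.78-fold difference. The log2 fold change of 0.83 (SE 0.33) did not pass the test (DESeq2 adjusted p = 0.365), and it was 0.43 without cadmium 2. Neighbours here are the 40 nearest genes on the chromosome that averaged 100 normalized counts or more, with the 10 members left out. Their median log2 fold change was 0.03, and all 40 were below NQO1.

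NQO2 (ENSG00000124588, chr6:2987987-3019755, plus strand) encodes a related flavoprotein that uses dihydronicotinamide riboside in place of NADPH. It had 2384 and 2734 normalized counts in control 2 and control 3, and 2655 and 2832 in cadmium 1 and cadmium 2. The groups overlapped. Its log2 fold change of 0.10 (SE 0.26, DESeq2 adjusted p = 1.00) was the same as the median of its 40 neighbours, also 0.10. Reads of NQO1 outnumbered those of NQO2 by 2.84 and 2.53 times in control 2 and control 3, and by 3.48 and 5.33 times in cadmium 1 and cadmium 2.

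AKR1A1 (ENSG00000117448, chr1:45550543-45570049, plus strand) encodes the widely expressed aldehyde reductase. Its normalized counts were 3499 and 2434 in control 2 and control 3, and 1969 and 2016 in cadmium 1 and cadmium 2. Both controls were above both cadmium libraries, and control 2 stood apart from the other 3. At a log2 fold change of -0.57, AKR1A1 was not called (SE 0.30, DESeq2 adjusted p = 0.741), and its 40 neighbours had a median of -0.30. Against control 3 the neighbours were nearly level (-0.03 and -0.04 for cadmium 1 and cadmium 2), and against control 2 they were at -0.67 and -0.55. The log2 fold change of AKR1A1 was -0.82 without control 3 and -0.29 without control 2.

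AKR1B1 (ENSG00000085662, chr7:134442356-134459284, minus strand) had 15332 and 7664 normalized counts in control 2 and control 3, and 6949 and 7006 in cadmium 1 and cadmium 2. The 2 controls differed 2.00-fold, and control 3 was close to the cadmium libraries. Its log2 fold change was -0.72 (SE 0.38, DESeq2 adjusted p = 0.741). Without control 3 the log2 fold change was -1.15, and without control 2 it was -0.14.

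AKR1B10 (ENSG00000198074, chr7:134527567-134541412, plus strand), whose product reduces retinal and lipid-derived aldehydes and is a close relative of AKR1B1, lies next to it on chromosome 7 and had values in the other direction. It was counted in 5 and 13 reads in control 2 and control 3, and in 52 and 58 reads in cadmium 1 and cadmium 2. The groups were well apart, at 9.28 ± 6.43 against 54.5 ± 3.90 normalized counts (SD, n = 2 each). The log2 fold change of 2.57 (SE 0.84) was the largest among the members in the fit of all 4 libraries, and it did not pass the test (DESeq2 adjusted p = 0.154). Its level in cadmium cells was 0.555 RPKM. It was called without control 3 and with upper-quartile factors (adjusted p = 0.0922). The 40 neighbours of AKR1B1 and those of AKR1B10 both had a median of -0.34 on the same scale, with 36 of the 40 above AKR1B1 and all 40 below AKR1B10.

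**Figure D3:**
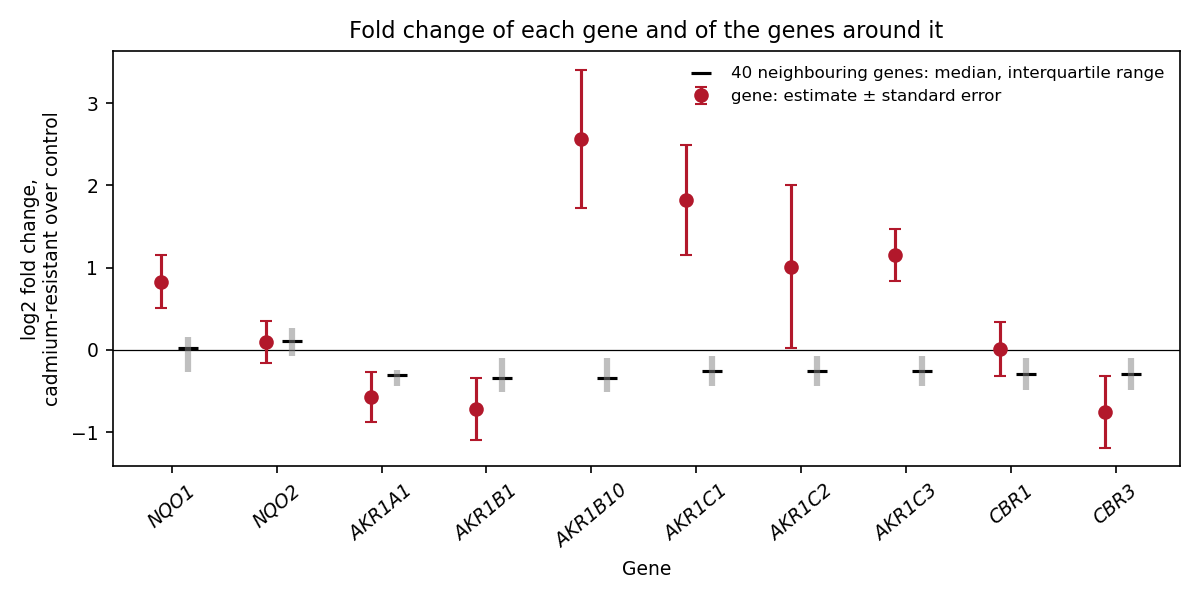
Log2 fold change of cadmium over control (vertical axis) for each of the 10 reductase genes, as red points with the standard error. Beside each are the median (black dash) and interquartile range (grey bar) of its 40 neighbours on the same chromosome. Neighbours averaged 100 normalized counts or more, and the 10 genes themselves were left out. AKR1C3 is the called gene, at 1.16, where its neighbours are at -0.25, and NQO2 lies on its neighbours' median of 0.10.

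AKR1C3 (ENSG00000196139, chr10:5035354-5107686, plus strand), the prostaglandin F synthase that also turns androstenedione into testosterone, rose 2.23-fold in cadmium cells. Its normalized counts were 789 and 892 in control 2 and control 3, and 1536 and 2210 in cadmium 1 and cadmium 2. The controls lay close together and the groups did not overlap. The means were 841 ± 72.8 and 1873 ± 477 (SD, n = 2 each), for a log2 fold change of 1.16 (SE 0.31, DESeq2 adjusted p = 0.0361). Over each cadmium library set against each control, the log2 ratio ran from 0.78 to 1.49. The call was lost without cadmium 1 (log2 fold change 1.39) and without cadmium 2 (0.87), each at an adjusted p of 1.00, and with edgeR (adjusted p = 0.620) and limma-voom (adjusted p = 0.669). Its 40 neighbours span chr10:134465-12250589 and leave out AKR1C1 and AKR1C2. Of these neighbours 39 were below AKR1C3 and 1 above, and their median was -0.25. The neighbours' medians were -0.61 and -0.58 in cadmium 1 and cadmium 2 against control 2, and 0.11 and 0.15 against control 3, all below the lowest log2 ratio of AKR1C3.

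AKR1C1 (ENSG00000187134, chr10:4963253-4983283, plus strand) encodes a 20-alpha-hydroxysteroid dehydrogenase that inactivates progesterone. Its normalized counts were 62.5 and 346 in control 2 and control 3, against 575 and 864 in cadmium 1 and cadmium 2. Both cadmium libraries were above both controls, but the controls themselves differed 5.53-fold. AKR1C1 had a log2 fold change of 1.82 (SE 0.67, DESeq2 adjusted p = 0.285). It was called when either control was left out, at 1.06 without control 2 and 3.51 without control 3.

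AKR1C2 (ENSG00000151632, chr10:4987775-5018031, minus strand) encodes the 3-alpha-hydroxysteroid dehydrogenase that reduces dihydrotestosterone. It was counted in 6 and 78 reads in control 2 and control 3, and in 79 and 101 reads in cadmium 1 and cadmium 2. Control 2 alone was low, and control 3 was level with cadmium 1, so the groups overlapped. The normalized counts of the controls differed 14.6-fold, and the log2 fold change was 1.01 (SE 0.99, DESeq2 adjusted p = 1.00). Without control 2 it was 0.10, and without control 3 it was 3.96.

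The AKR1C genes were also tested as 1 sum, which does not depend on how counted reads were split among the 3. Reads dropped in counting are missing from the sum too. AKR1C3, called on its own, held most of the summed reads, so the test of the sum is not a separate one. The sum rose 2.46-fold, from 857 and 1321 normalized counts in the controls to 2190 and 3173 in cadmium 1 and cadmium 2 (log2 fold change 1.30, SE 0.36, DESeq2 adjusted p = 0.0382). Without cadmium 1 it was 1.54 and without cadmium 2 it was 1.01, neither called. The sum was not called with edgeR (adjusted p = 0.620) or limma-voom (adjusted p = 0.669). AKR1C3 held 92.1% of the summed reads in control 2, but 67.6% in control 3, 70.1% in cadmium 1 and 69.6% in cadmium 2. AKR1C1 held 7.28%, 26.2%, 26.3% and 27.2% in the same order. AKR1C2 held 0.662%, 6.28%, 3.59% and 3.14%. Between AKR1C3 and AKR1C1 the division in control 3 was thus near that of both cadmium libraries. Control 2 stood apart with 12.6 reads of AKR1C3 for each read of AKR1C1, against 2.58, 2.67 and 2.56 in the other libraries. For each read of AKR1C2 there were 11 and 4.17 reads of AKR1C1 in control 2 and control 3, and 7.32 and 8.66 in cadmium 1 and cadmium 2. On that ratio control 3 was not near the cadmium libraries.

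**Figure D4:**
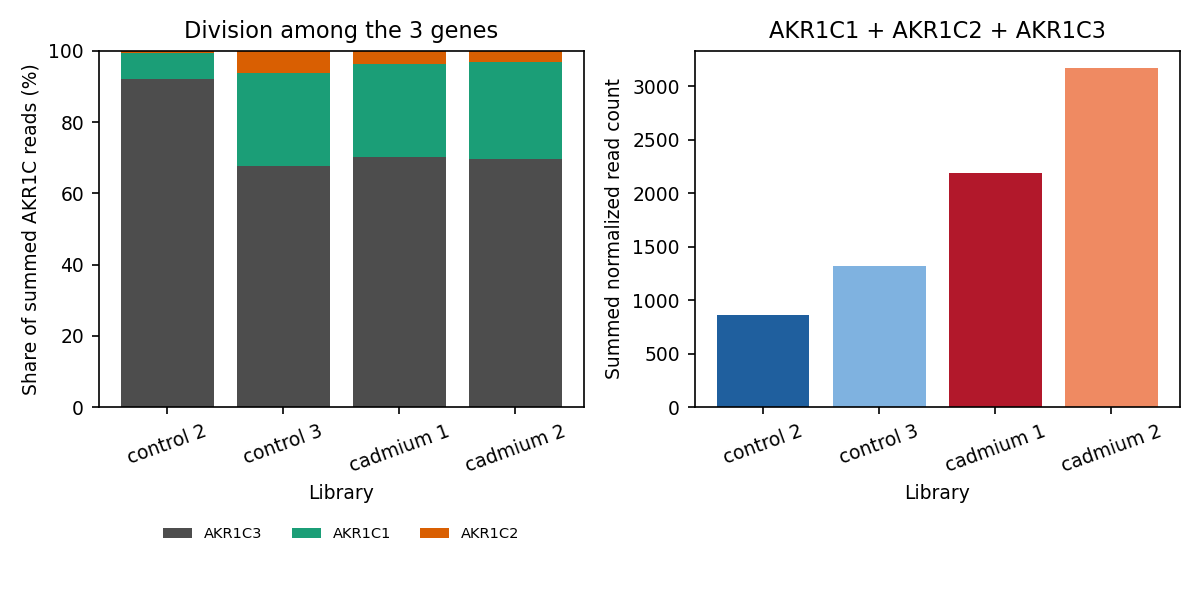
Division of the AKR1C reads among AKR1C1, AKR1C2 and AKR1C3 in each library, in percent (left), and their summed normalized read count (right). Each cadmium library has a taller sum than either control, and AKR1C3 holds 92.1% of the reads in control 2 and 67.6% to 70.1% in the other 3 libraries.

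CBR1 (ENSG00000159228, chr21:36069941-36073166, plus strand), the main cytosolic carbonyl reductase and a reducer of daunorubicin and prostaglandins, had 3203 and 2071 normalized counts in control 2 and control 3, and 2434 and 2891 in cadmium 1 and cadmium 2. Both cadmium libraries lay between the controls. The log2 fold change was 0.01 (SE 0.33, DESeq2 adjusted p = 1.00), and its sign turned to -0.28 without control 3 and to -0.12 without cadmium 2.

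CBR3 (ENSG00000159231, chr21:36135079-36146562, plus strand) lies beside CBR1 and encodes a carbonyl reductase of narrower substrate range. Its normalized counts were 217 and 157 in control 2 and control 3, and 96.5 and 125 in cadmium 1 and cadmium 2. Both controls were above both cadmium libraries. The estimate was a log2 fold change of -0.75 (SE 0.43, DESeq2 adjusted p = 0.815). CBR1 and CBR3 share a neighbourhood whose median was -0.30, with 35 of 40 neighbours below CBR1 and 38 of 40 above CBR3. Of the 998 exon bases of CBR3, 710 are also exon of CBR3-AS1, which had 52 and 19 reads in the controls and 22 and 30 in the cadmium libraries. Over the exon bases that no other gene overlaps, the mean control level of CBR3 was 11.4 RPKM rather than 3.28.

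**Figure D5:**
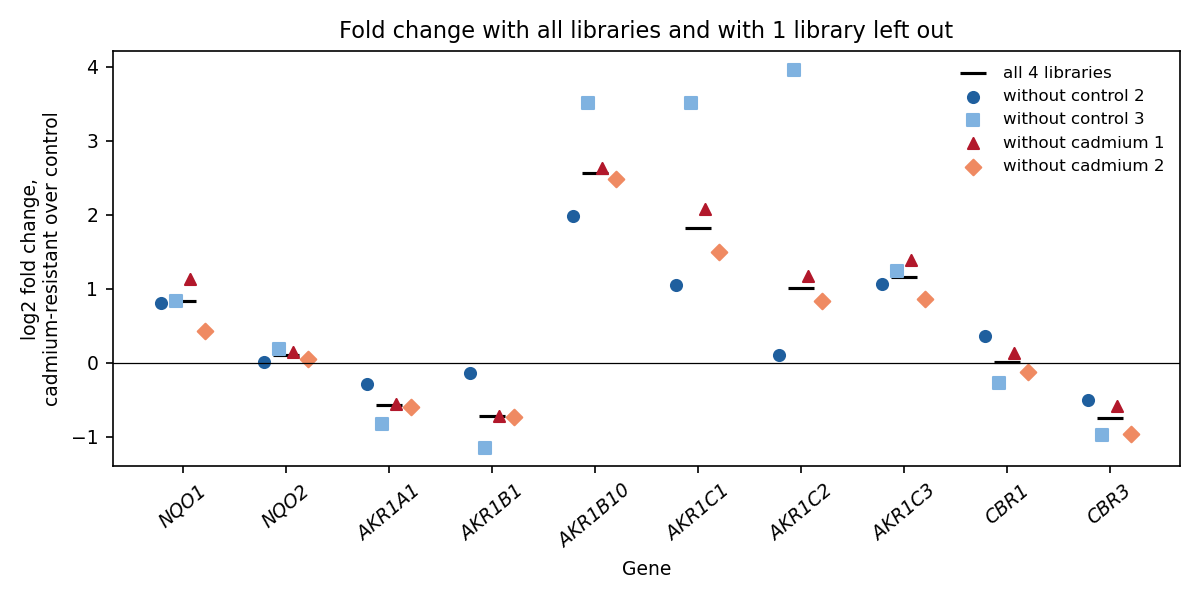
Log2 fold change of cadmium over control (vertical axis) for each of the 10 reductase genes, as a black dash for the fit of all 4 libraries and a coloured point for the fit without each library. The values of AKR1C1 and AKR1C2 spread most, from 1.06 to 3.51 and from 0.10 to 3.96 over the fits without 1 library, and AKR1C3 lies between 0.87 and 1.39.

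Levels were also summed per family. NQO1 and NQO2 together were at 55.7 and 62.5 RPKM in control 2 and control 3, and at 76.8 and 111.9 RPKM in cadmium 1 and cadmium 2. AKR1A1, AKR1B1 and AKR1B10 together were at 90.8 and 52.2 RPKM in the controls and at 46.7 and 46.4 RPKM in the cadmium libraries. The AKR1C genes were at 3.58 and 5.09 RPKM against 8.59 and 12.2 RPKM, and CBR1 with CBR3 at 26.0 and 18.2 RPKM against 19.9 and 23.4 RPKM. The last sum uses the whole exon length of CBR3, of which only 28.9% was counted. AKR1C3 and NQO1 make up most of the sums that were higher in both cadmium libraries, and AKR1B1 most of the sum that was lower.

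The table held 30 further rows whose symbols begin with the same family names, most of them pseudogenes and antisense genes. Of these, 11 had no read in any library and 9 had at least 10 reads in 1 library. AKR7A2, an aldehyde reductase that reduces succinic semialdehyde, had 3740 and 2804 reads in the controls and 2727 and 3183 in the cadmium libraries. In the same order CBR4, a mitochondrial carbonyl reductase, had 979, 795, 955 and 901 reads, and AKR1E2 had 238, 302, 238 and 271. AKR7A3, AKR7L, AKR1B1P1, AKR1C7P, CBR3-AS1 and NQO1-DT had at most 52 reads in any library. DESeq2 called 0 of these 9 genes, and 0 had an unadjusted p below 0.05.

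Other genes of the same chemistry were read from 4 lists. Of 29 further carbonyl, quinone and enone reductases tested, 0 were called higher and 1 lower, against 0.601% and 0.535% of all genes tested. That gene was DHRS3, the retinal reductase that limits retinoic acid formation, which fell from 366 and 1029 normalized counts in control 2 and control 3 to 99.5 and 115 in cadmium 1 and cadmium 2 (log2 fold change -2.70, SE 0.52, DESeq2 adjusted p = 1.00e-04). Without control 3 its log2 fold change was -1.79. The call was lost without cadmium 1 (adjusted p = 0.160) and with edgeR and limma-voom. Of the 29 genes, 5 had an unadjusted p below 0.05 (4 with edgeR), and the list's median log2 fold change was -0.09. For this list and the next ones, the share of all genes at that p was 6.92% with DESeq2 and 7.83% with edgeR. Of 17 aldehyde dehydrogenases, the oxidizing counterpart, DESeq2 called 0, with 3 at an unadjusted p below 0.05 (1 with edgeR) and a median of -0.18. None of the 18 NRF2 regulators and partners was called by DESeq2 either, with 1 at an unadjusted p below 0.05 (4 with edgeR) and a median of -0.01.

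Of 31 other NRF2 target genes tested, 2 were called higher and 0 lower, against 0.601% and 0.535% of all genes tested. An unadjusted p below 0.05 was found for 6 (7 with edgeR), against 6.92% of all genes (7.83% with edgeR). The list's median was 0.13. HMOX1, which breaks down heme, was at a log2 fold change of 2.48 (DESeq2 adjusted p = 1.58e-08), and SLC7A11, the cystine importer, at 1.87 (adjusted p = 1.77e-05). SLC7A11 was not called without cadmium 1 (adjusted p = 0.168) or without cadmium 2 (0.532), and neither gene was called with edgeR (adjusted p = 0.587 for both) or limma-voom. The genes whose normalized counts followed AKR1C3 most closely over the 4 libraries, of 12924 genes searched, were APCDD1L-DT, ENSG00000256615 and H2BC20P, at Euclidean distances of 0.0722, 0.160 and 0.270 between centred log2 counts.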

How the data were processed

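Total RNA of control and cadmium MDA-MB-231 cells was sequenced as read pairs. The authors trimmed adaptors, used HISAT2 to place reads on hg38 and deposited raw read counts per gene from featureCounts 2.0.1, whose default options ignored strand, counted each mate and dropped reads with several places or genes. Gene symbols were matched to 61369 of the 61541 Ensembl identifiers. The cadmium columns were matched to sample labels. The control columns were assigned by their names (No_Cd), as they carry the numbers 2 and 3 where the labels have 1 and 2.

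As in the study the tool was DESeq2, here version 1.42.0 in R 4.3.3 (two-sided Wald test of group, p-values adjusted by Benjamini-Hochberg once genes under a mean normalized count of 7.69 were removed). Alternatives were edgeR 4.0.16, limma-voom 3.58.1, DESeq2 with TMM or upper-quartile factors, other filters, a threshold of 0.05, halved counts (for the mates) and leaving out each library. RPKM used the table's exon lengths. Coding sequences were aligned with Biopython 1.88 in Python 3.11.15. DESeq2 and edgeR were also run on simulated counts with added fold changes and the same spread in both groups. Only the direction and median size of the recovered changes were required to be right. Genes with few reads were given no added change.

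The members and lists were chosen with earlier results of these data known. Named were all members, family rows with at least 10 reads in 1 library, up to 3 called genes per list and direction, and the 3 nearest profiles of a called member. The p-values measure only the spread between these libraries. The labels call the controls biological replicates but the cadmium libraries only replicates, so the spread between the cadmium libraries may be technical.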

Additional observations from a re-analysis of the deposited data

How the results depend on the processing

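Over the log2 fold changes of the 10 reductase genes, 107 of 120 values under the alternatives kept their direction and their side of the threshold, 7 gained a call, 4 lost one and 2 turned sign. Both turns were those of CBR1, to -0.28 without control 3 and -0.12 without cadmium 2, with 0.36 as its highest value without 1 library. The 107 include AKR1B10 without either cadmium library and AKR1C2 without cadmium 2, which had no adjusted p and were taken as not called. Dropping the independent filter or setting the threshold to 0.05 cannot change a log2 fold change, so direction was fixed there. With edgeR and with limma-voom 0 of the 10 reductase genes were called, and 0 genes in all in either direction (1506 and 1423 at an unadjusted p below 0.05), 0 of the other reductases and 0 of the other NRF2 targets, and the AKR1C sum was at 1.30 and 1.32 and not called. Upper-quartile factors called 2 of the 10, AKR1B10 and AKR1C3, among 152 genes called higher and 88 lower. Leaving out 1 library called 0 to 6 of the 10, 9 to 2678 genes higher and 5 to 3511 lower, 0 to 17 of the other reductases, 0 to 9 aldehyde dehydrogenases, 0 to 8 NRF2 regulators and 1 to 16 other NRF2 targets, and the AKR1C sum ran from 1.01 to 1.63. The higher counts came without a control and the lower ones without a cadmium library. Calls of members and list genes thus rose together with those of all genes. In these fits the lone library was assumed to vary like the other group. Over exon not shared with other genes the control levels of NQO1 and CBR3 were 50.3 and 11.4 RPKM.

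No paired analysis was possible because no number ties a control to a cadmium library, the controls being 2 and 3 in the table and 1 and 2 in the labels. Genes with few reads, such as AKR1B10 and AKR1C2 in the controls, have wide counting error, which the doubled counting of mates understates.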
